A study of Bos taurus with 12 samples.

Results

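Day 9 was compared with day 6 of adipogenic induction in cultured bovine intramuscular preadipocytes, the last interval of the time course. The comparison took every sample labelled with either day, 3 of day 6 and 3 of day 9, which made 6 of the 12 samples of the series. Newborn Qinchuan calves (Bos taurus) were the source, and the cells were isolated from their longissimus dorsi. They were grown to near confluence (day 0), induced with dexamethasone (DEX, a synthetic glucocorticoid), IBMX (an inhibitor of cyclic nucleotide breakdown) and insulin, and then moved to medium in which insulin was the only inducer. Day 6 and day 9 cells shared this history and differed in time in culture. The samples of a day were described as biological replicates, and the paper speaks of 1 batch of cells over the time points. Whether they came from separate animals is not given in the sources used here, so the p-values measure the spread between these samples.

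White adipocytes arise when committed fibroblast-like preadipocytes leave the cell cycle, switch on factors such as CEBPA, and fill with triglyceride packed in droplets coated by perilipins. Glucocorticoid and cyclic AMP signals start this programme in culture. Wnt and TGF-beta signals and a fibrous matrix are known to hold cells in the progenitor or myofibroblast state. Late days in culture are when lipid storage is usually taken to mature.

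Expression was given as FPKM, fragments per kilobase of transcript scaled to the mapped fragments of a library. The mRNA table listed 33714 genes or loci. Those with a mean of at least 0.1 FPKM over the 12 libraries numbered 15402 and were tested. Summed FPKM was 1292029, 1320282 and 1311852 in the day 6 libraries and 1371794, 1326429 and 1370918 in the day 9 libraries. FPKM does not carry read depth, and the depth of the libraries was not used here.

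The label of the cells was checked against defining markers. Of 20 adipocyte markers, 15 were tested under their own symbol, and most stood at low levels on both late days. CEBPA was 0.06, 0.08 and 0.07 FPKM at day 6 and 0.05 in each day 9 library. ADIPOQ (adiponectin) read 1.64, 0.22 and 0.24 FPKM at day 6 and 0.8, 0.82 and 0.19 at day 9, with fully mixed values. PLIN1, the perilipin of mature droplets, was listed only in a locus joined with a neighbouring gene. The locus PLIN1;PEX11A read 27.8, 35.4 and 40 FPKM at day 6 and 34.9, 27.9 and 37.4 at day 9, with mixed values. The adipocyte markers summed to 63.6, 67.3 and 64.6 FPKM at day 6 and 70.1, 61.1 and 72.4 at day 9. The preadipocyte and fibroblast list summed to 870, 871 and 880 FPKM at day 6 and 1279, 1182 and 1224 at day 9. PDGFRB alone, the 1 called of 13 tested members, went from 212 to 597 FPKM on average, more than the rise of the sum, and 5 of the 13 changes were negative. Skeletal muscle genes were present on both days as well, which goes beyond what the label names. The 34 sarcomere and myogenic genes in the table, 33 of them tested, summed to 1107, 1018 and 1106 FPKM at day 6 and 1170, 1092 and 1281 at day 9, and the muscle-determining factor MYOD1 read 51.9, 34 and 57.3 FPKM against 56.6, 43.2 and 63.8. That sum leaves out the joint locus TTN;LOC112442545, which read 1848, 1379 and 1218 FPKM at day 6 and 1415, 1085 and 1137 at day 9, with mixed values. Of the blood and immune markers, CD68 lay between 0.14 and 0.32 FPKM over both days and CD163 between 13 and 28.3 FPKM at day 6. The libraries thus held fibroblast, muscle and adipocyte transcripts, with ADIPOQ under 2 FPKM and CEBPA under 0.1 FPKM in every library of the late days.

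An mRNA was called when its log2 fold change exceeded 1 in size and its limma adjusted p was under 0.05, on log2(FPKM + 0.1). Between day 6 and day 9, 683 of the 15402 tested mRNAs were called (4.43%). Of these, 392 were higher at day 9 (2.55%) and 291 were lower (1.89%). Over all tested mRNAs the median change in log2 was -0.04. The 3 libraries of day 9 did not overlap the 3 of day 6 for 6004 tested mRNAs (39.0%), and for 679 of the 683 called. Most calls were moderate: 66 of the higher and 50 of the lower mRNAs passed a log2 change of 2. Leaving out each library in turn gave 631 to 687 calls, and 482 of the 683 were called in each of those 6 fits. A pseudocount of 1, which shrinks changes of low mRNAs, gave 368 calls, 359 of them among the 683.

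**Figure D1:**
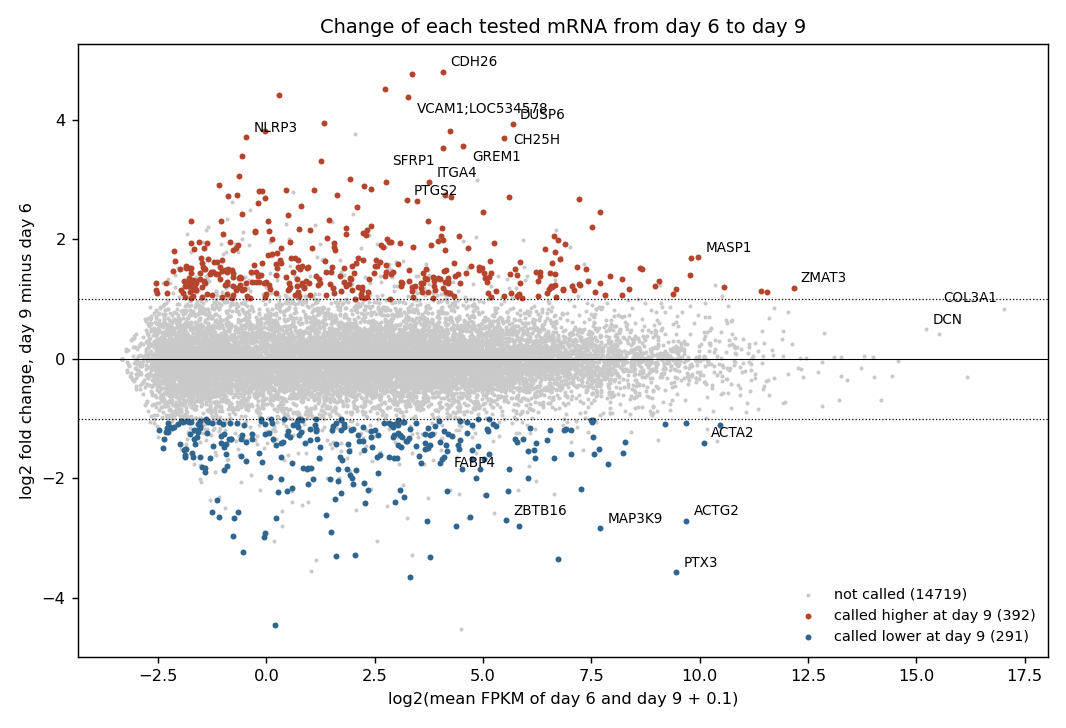
Each point is 1 tested mRNA, with its mean level over day 6 and day 9 on the x axis (log2 of FPKM + 0.1) and its log2 fold change, day 9 minus day 6, on the y axis; dotted lines mark a change of 1. Calls in each direction (392 higher in red, 291 lower in blue) lie at every level but the highest, while COL3A1, the most abundant mRNA, sits just inside the upper line at 0.83.

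On log2(FPKM + 0.1) the largest rise among named mRNAs was that of CDH26, a cadherin of cell-cell contacts. It read 1.1, 1.09 and 0.99 FPKM at day 6 and 32, 34.6 and 30.1 at day 9, a 30.4-fold difference of the means with a log2 fold change of 4.80 ± 0.24 (SE, limma adjusted p = 1.1e-06). All day 9 libraries lay far above all day 6 libraries. The locus holding VCAM1, an adhesion receptor for leukocytes, and LOC534578 went from 1.07, 0.59 and 0.73 FPKM to 16.8, 18.3 and 19.5 (log2 fold change 4.38 ± 0.22, limma adjusted p = 1.2e-06). ITGA4, the integrin subunit that binds VCAM1, rose as well, from 2.89, 3.46 and 2.65 FPKM to 23.2, 26.2 and 22.1. Both rises were without overlap between the days, but the joint name does not tell which of its genes was read.

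GREM1, a secreted antagonist of bone morphogenetic proteins, read 4.92, 4.24 and 2.07 FPKM at day 6 and 36.8, 44.5 and 47 at day 9. Its log2 fold change was 3.56 ± 0.26 (limma adjusted p = 1.2e-05), and the days were wide apart. SFRP1, a secreted Wnt antagonist, rose from 2.47, 3.21 and 2.2 FPKM to 31.1, 31.9 and 29.6 (3.52 ± 0.13, limma adjusted p = 2.2e-07), with replicates of each day closely grouped. FGF1, a growth factor of adipose and muscle tissue, rose from 0.25, 0.22 and 0.56 FPKM to 3.29, 3.48 and 5.9. ABI3BP, a matrix protein, rose from 4.26, 1.46 and 2.1 FPKM to 32.8, 32.3 and 38.8. NLRP3, the sensor of the inflammasome, was listed at 0.01, 0 and 0 FPKM at day 6 and at 1.1, 1.26 and 1.39 at day 9, so that it was close to undetected before. CLECL1 moved from at most 0.03 FPKM at day 6 to 0.92, 1.19 and 1.29, and FAM107A and RGS4 were 8.06-fold and 7.01-fold higher at day 9 by their means.

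A few large rises rested on genes whose replicates also differed within a day. SEC62, a component of protein import into the endoplasmic reticulum, read 0.51, 0.47 and 0.4 FPKM at day 6 and 12.7, 13.9 and 11.7 at day 9, but the day 0 libraries read 0.55, 11.9 and 0.66. PURA read 2.79, 0.21 and 0.31 FPKM at day 6 and 18.3, 20.8 and 18.9 at day 9. DUSP6, a phosphatase of ERK signalling, read 4.62, 23.5 and 1.46 FPKM against 118, 44.9 and 116. CH25H, which makes an oxysterol, read 3.11, 4.27 and 4.08 FPKM against 187, 11.6 and 57.1, so that the libraries of day 9 disagreed by more than the gap from day 6 to the lowest of them. Fitted on the 6 libraries of the late days alone, DUSP6 and CH25H were no longer called (limma adjusted p = 0.054 and 0.056). Of the 683 called mRNAs, 23 had replicates of some day that differed more than 5-fold.

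Among the falls, PTX3 combined size with abundance. This secreted pentraxin of innate immunity read 1216, 1350 and 1336 FPKM at day 6 and 126, 105 and 98.1 at day 9, which made it 11.8-fold lower (log2 fold change -3.57 ± 0.10, limma adjusted p = 6.5e-08). MAP3K9, a mixed-lineage kinase, fell from 354, 393 and 346 FPKM to 53.2, 57.9 and 43.3. In both genes the days did not overlap. The transcription factor FOXQ1 fell from 6.76, 7.88 and 7.54 FPKM to 0.74, 0.68 and 0.58. CALCB, a calcitonin gene-related peptide, fell from 1.93, 1.61 and 1.28 FPKM to 0.13, 0.18 and 0.05. The locus named for the microRNAs MIR424 and MIR503 fell from 17.4, 22.1 and 14.8 FPKM to 2.28, 1.34 and 0.74, a reading of its long transcript and not of the mature microRNAs.

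Some falls came with a wide spread on another day or between replicates. FAM129A read 179, 211 and 186 FPKM at day 6 and 19.3, 17.3 and 19.7 at day 9, while its day 0 libraries read 31.4, 274 and 247. CDC42SE2 fell from 35.1, 37.7 and 35.7 FPKM to 5.8, 5.42 and 4.31, but day 3 held 44.5, 8.44 and 36.9, and the call was lost when any of the 6 libraries was left out (limma adjusted p = 0.065 to 0.082) but held on the 6 late libraries alone (0.00027). PALM2;AKAP2 read 6.14, 63.1 and 5.01 FPKM at day 9 against 92.3, 80.5 and 91.5 at day 6, with replicate 2 of day 9 far above the other day 9 libraries. Leaving out that library moved its log2 change from -2.80 to -3.96, and leaving out any of the other 5 ended the call (limma adjusted p up to 0.10), as did fitting the 6 late libraries alone (0.11). HBA1, a haemoglobin gene with near-identical copies and therefore uncertain, read 2.24, 2.16 and 1.88 FPKM at day 6 and was listed at 0 in each day 9 library. Its call was also lost in every fit without 1 library (limma adjusted p = 0.055 to 0.061) and held on the 6 late libraries alone (0.00012), with a log2 change of -4.52 to -4.40 throughout.

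**Figure D2:**
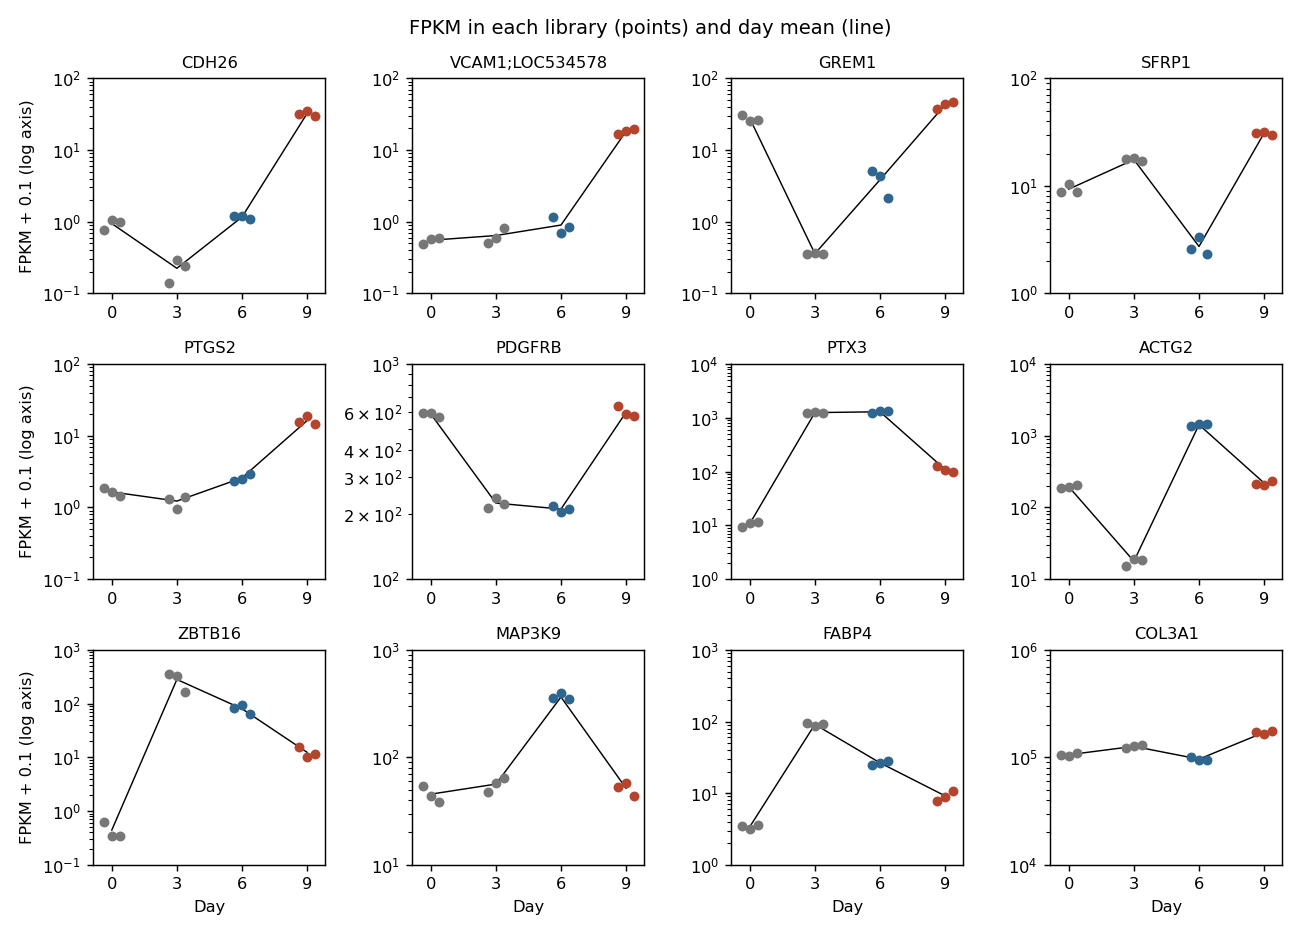
FPKM + 0.1 of 12 genes (log axes) in each library at days 0, 3, 6 and 9; points are libraries, lines join day means, and blue and red mark day 6 and day 9. The points of day 6 and day 9 are apart in every panel, COL3A1 included, which changed from 96303 to 170830 FPKM on average.

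Among the called mRNAs, the largest rises in FPKM instead of fold were those of ZMAT3, MFGE8, SFRP4, TIMP1 and MASP1. ZMAT3, an RNA-binding target of p53, read 2840, 3050 and 2511 FPKM at day 6 and 6473, 6426 and 6232 at day 9 (log2 fold change 1.19 ± 0.09, limma adjusted p = 1.9e-05). MFGE8, a bridge for the uptake of dying cells that also binds integrins, went from 1948, 1930 and 1852 FPKM to 4349, 3892 and 4165. TIMP1, an inhibitor of matrix metalloproteinases, was 2.29-fold higher. These genes were already abundant at day 6 and their replicates were tight. On the other side, PTX3, ACTG2, NID2 and ACTA2 lost the most FPKM of the called mRNAs, with LAMC1 next. NID2, a basement membrane linker, fell from 1939, 2013 and 1886 FPKM to 936, 860 and 905. LAMC1 read 1067, 1180 and 1061 FPKM against 634, 358 and 628, and its call did not hold without replicate 2 of day 9 (log2 change -0.80) or replicate 2 of day 6 (limma adjusted p = 0.056).

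The most abundant mRNA, COL3A1 (type III collagen), moved less in ratio and more in quantity. It read 99910, 95106 and 93893 FPKM at day 6 and 173652, 163376 and 175454 at day 9, which was 7.16 to 7.73% and then 12.3 to 12.8% of the summed FPKM. Its log2 fold change of 0.83 ± 0.04 (limma adjusted p = 1.2e-06) stayed under the fold threshold. Whether this gain changed the FPKM of other genes was not tested. After rescaling by the median ratio between libraries, which centres the changes, the median change of all mRNAs went from -0.04 to 0.00. With it 421 mRNAs were higher and 269 lower. Among the 10 most abundant mRNAs of day 9, none was called. DCN (decorin) read 31464 ± 850 FPKM at day 6 and 44464 ± 609 at day 9 (mean ± SD, n = 3), LRP1 39999 ± 2197 and 53530 ± 3754, and the glycolytic enzyme ENO1 22965 ± 985 and 14174 ± 55.1.

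The tested mRNAs were then read through 51 gene lists. The share of called members is set against the 2.55% higher and 1.89% lower of all tested mRNAs, and the median change against -0.04. Lists with a called member and their medians are drawn in the plot of gene lists. At one end stood glucocorticoid response and smooth muscle-type contractile genes, at the other chemokines and cytokines and immediate-early genes. Class I antigen presentation came next by its median, 0.67, with 1 of 9 members higher and 0 lower. Of its 9 changes 8 were positive, but its sum went down. The list summed to 1099, 1116 and 1161 FPKM at day 6 and 995, 983 and 1040 at day 9. At the negative end targets of ATF4 came next, close to the contractile genes, with a median of -0.63 and 2 of 29 members lower.

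**Figure D3:**
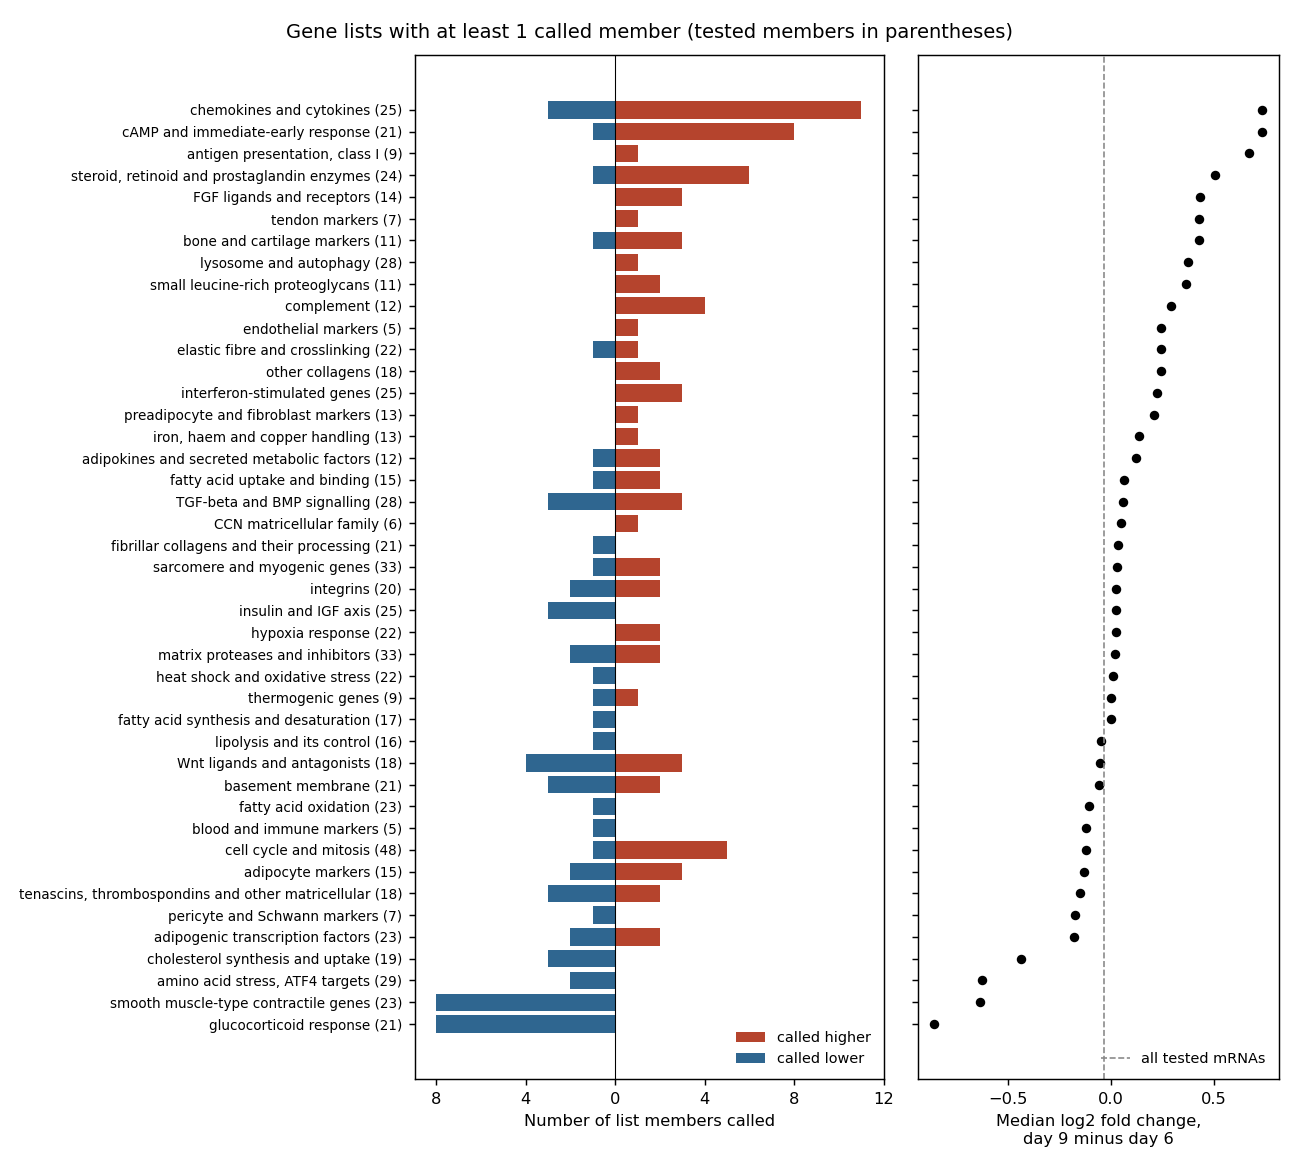
Left, the number of members called higher (red, to the right) or lower (blue, to the left) at day 9 in each list with at least 1 call; right, the median log2 fold change of the tested members, with the median of all tested mRNAs dashed. Chemokines and cytokines had 11 members higher and 3 lower, and glucocorticoid response and contractile genes had 8 lower each and 0 higher.

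Of 21 tested glucocorticoid response genes, 8 were lower at day 9 and 0 higher, and the median change was -0.86; 14 of the 21 changes were negative. At an unadjusted limma p under 0.05 there were 19 of the 21, of which 14 were negative, where 4932 of all tested mRNAs (32.0%) passed that threshold. ZBTB16, a zinc finger factor strongly induced by glucocorticoids, read 84.4, 93 and 63.3 FPKM at day 6 and 15.6, 9.89 and 11.5 at day 9 (log2 fold change -2.70 ± 0.34, limma adjusted p = 0.00038). MT2A, a metallothionein that binds zinc and copper, fell from 42, 50.9 and 43.4 FPKM to 12.1, 11 and 10.6. SGK1, a kinase of ion transport, fell from 67.7, 81 and 78.1 FPKM to 20.5, 21.1 and 21.3. Each of these genes was lower in all day 9 libraries. GLUL (glutamine synthetase) was 2.65-fold lower, and KLF15, TSC22D3 (GILZ), PER1 and PDK4 were the other falls. Most of these genes had been highest on day 3: GLUL averaged 24.9 FPKM at day 0, 440 at day 3, 108 at day 6 and 40.7 at day 9, and TSC22D3 8.13, 34.9, 19.8 and 8.25. SGK1 differed, with 84.2 FPKM at day 0 and 60.7 at day 3. In the list as a whole 15 members were called higher and 2 lower at day 3 than at day 0, where the calls over all tested mRNAs were 8.06% higher and 15.2% lower.

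The smooth muscle-type contractile genes, which in fibroblasts mark the myofibroblast state, had 8 of 23 members lower and 0 higher, with a median change of -0.64. Of the 23 changes 20 were negative, but the largest in size was a rise (log2 change 3.76) that was not called. ACTG2 (smooth muscle gamma actin) read 1370, 1468 and 1453 FPKM at day 6 and 214, 208 and 236 at day 9 (log2 fold change -2.71 ± 0.09, limma adjusted p = 1.5e-07). ACTA2, the alpha actin of stress fibres, read 1504, 1629 and 1617 FPKM against 596, 568 and 629. Neither gene overlapped between the days. TAGLN (transgelin), CNN1 (calponin), MYLK (the kinase of myosin light chain), SYNPO2, LMOD1 and TPM2 fell between 2.32-fold and 3.63-fold. The course of these genes was not a steady decline. ACTA2 averaged 1697 FPKM at day 0, 26.8 at day 3, 1583 at day 6 and 598 at day 9, and ACTG2 averaged 194, 17.6, 1430 and 219, so that day 9 lay between day 3 and day 6 in both. TPM4, the most abundant member, was scattered in both days, with 705, 772 and 2372 FPKM at day 6 and 1902, 627 and 2006 at day 9. In a bulk culture fewer cells of a type and less RNA per cell cannot be told apart.

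Immediate-early and cyclic AMP response genes moved the other way. Of 21 tested, 8 were higher and 1 lower at day 9, with a median change of 0.73. NR4A1, an orphan nuclear receptor, read 38.4, 35.8 and 38.8 FPKM at day 6 and 133, 141 and 128 at day 9 (log2 fold change 1.83 ± 0.10, limma adjusted p = 1.9e-06), and its relative NR4A3 was 4.58-fold higher. The AP-1 subunit FOSL1 rose from 14.6, 19.4 and 13.2 FPKM to 70.3, 62.4 and 49.5, and JUNB from 18.8, 20.2 and 19.6 to 50, 49.2 and 52.8. JUN itself went down, from 195, 204 and 193 FPKM to 62.8, 63.9 and 69, and FOSL2, the most abundant member, was not called. AP-1 subunits thus changed in opposite directions. PDE4B, which degrades cyclic AMP, EGR3 and IER3 were the other clear rises. EGR2 stayed under 0.6 FPKM, and its call did not hold without replicate 1 or replicate 3 of day 6 (log2 change 0.93 each).

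FGF ligands, receptors and feedback genes had 3 of 14 members higher and 0 lower, with a median change of 0.43. They were FGF1, DUSP6 and SPRY4. SPRY4, a feedback inhibitor of receptor tyrosine kinase signalling, rose from 8.48, 9.58 and 11.4 FPKM to 31.4, 30.6 and 27.7 (log2 fold change 1.60 ± 0.13, limma adjusted p = 2.8e-05). All SPRY4 readings of day 9 lay above those of day 6. FGF2, the most abundant ligand of the list, read 187, 640 and 601 FPKM against 705, 337 and 895 and overlapped.

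Of 24 tested genes of steroid, retinoid and prostaglandin metabolism, 6 were higher and 1 lower, with a median change of 0.50. PTGS2 (cyclooxygenase 2), the inducible first step of prostaglandin synthesis, read 2.21, 2.37 and 2.87 FPKM at day 6 and 15.3, 18.8 and 14.5 at day 9. PTGES, the terminal synthase of prostaglandin E, read 3.72, 2.14 and 3.21 FPKM against 19.8, 18.6 and 18.3. Their log2 fold changes were 2.66 ± 0.17 and 2.64 ± 0.17 (limma adjusted p = 5.7e-06 and 4.3e-06), and no library of one day reached those of the other. The receptors divided. PTGFR, the receptor of prostaglandin F, rose from 4.25, 4.7 and 4.29 FPKM to 29.3, 32 and 28.8, while PTGER3 fell from 0.31, 0.61 and 0.54 FPKM to 0.1, 0.03 and 0.06. PTGER2 was called higher at no more than 0.31 FPKM, and that call was lost without replicate 1 of day 6, replicate 1 of day 9 or replicate 3 of day 9 (limma adjusted p up to 0.066). CRABP1, which carries retinoic acid in the cytosol, was 6.17-fold higher and CYP1B1 2.43-fold. ALDH1A3, the most abundant member, read 508, 500 and 568 FPKM against 500, 496 and 523 and was not called.

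Chemokines and cytokines held the most calls of the lists. Of 25 tested, 11 were higher and 3 lower, with a median change of 0.73. CXCL5, a neutrophil chemokine, read 10.5, 8.02 and 10.8 FPKM at day 6 and 46.8, 61.3 and 53.3 at day 9 (log2 fold change 2.45 ± 0.14, limma adjusted p = 1.9e-06). The related GRO1, CXCL2, CXCL3 and CXCL8 rose with it from lower levels and were at most 3.02 FPKM on either late day. IL33, an alarmin, read 0, 0.27 and 0.27 FPKM against 1.39, 1.21 and 1.48. IL6, IL7, IL11, IL15 and IL34 rose within levels below 1.6 FPKM. The 3 falls were PTX3, the stromal chemokine CXCL12 (84.6, 82.3 and 93.5 FPKM to 34.9, 34.7 and 33.2) and the monocyte chemokine CCL2 (24.4, 19.8 and 24.8 to 8.28, 8.55 and 9.26). In sum the list read 2123, 2278 and 2274 FPKM at day 6 and 890, 869 and 846 at day 9, a fall of the sum in which PTX3, with means of 1301 and 110 FPKM, had the largest part. With a pseudocount of 1, 3 members were called higher and 3 lower.

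**Figure D4:**
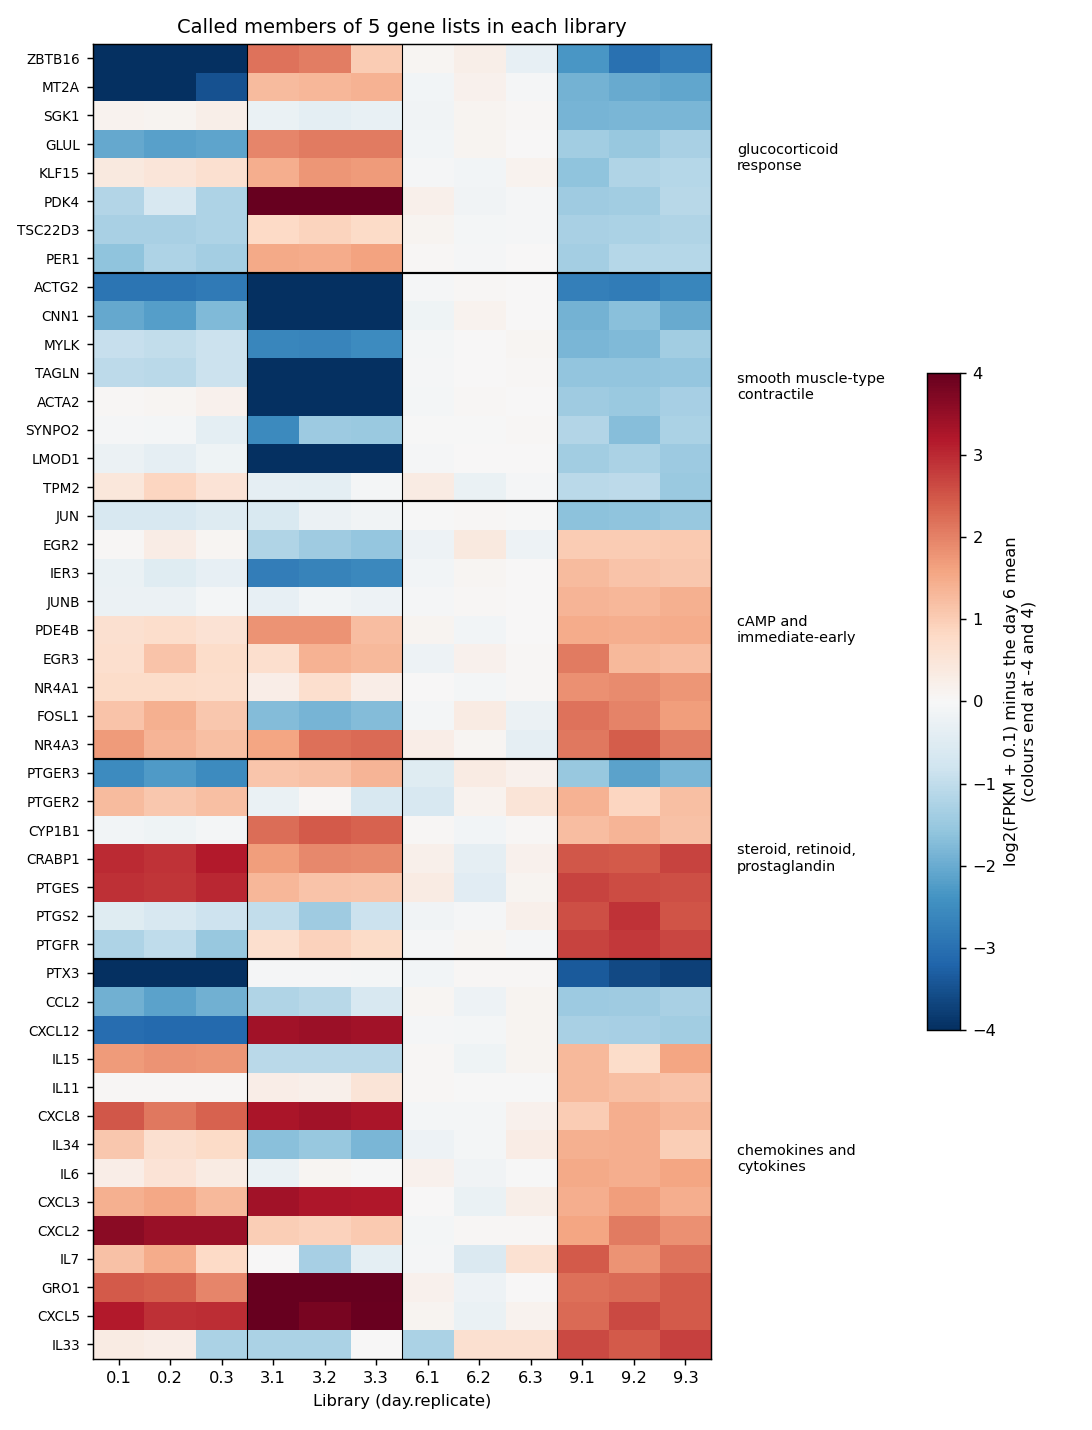
Called members of 5 gene lists, 1 row per gene and 1 column per library (day.replicate); colour is log2(FPKM + 0.1) minus the mean of day 6. Apart from SGK1 the glucocorticoid rows are red at day 3, and all are blue at day 9; the contractile rows are blue at both days, and most rows of the lower lists are red at day 9 in all 3 libraries.

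Complement genes had 4 of 12 members higher and 0 lower. MASP1, a protease of the lectin pathway, was also among the 5 largest gains in FPKM of called mRNAs, from 487, 444 and 471 to 1640, 1534 and 1394 (log2 fold change 1.70 ± 0.09, limma adjusted p = 1.6e-06). C1S rose from 19.2, 16.7 and 19.6 FPKM to 45.4, 42.9 and 53.6, and the locus with its partner protease C1R was 2.06-fold higher. C3, the central component, rose from 0.25, 0.27 and 0.28 FPKM to 0.72, 0.91 and 0.93. With a pseudocount of 1 MASP1 and C1S were called, and C3 and CFI were not. CFI, at most 0.35 FPKM, lost its call without replicate 1 or 2 of day 6 or replicate 1 of day 9 (limma adjusted p up to 0.055). Interferon-stimulated genes had 3 of 25 members higher (IRF1, IRF7 and IFI44L) and 0 lower, at levels under 5 FPKM, and 5 higher after rescaling. IRF7 and IFI44L were not called with a pseudocount of 1. IFI44L was no longer called without replicate 2 of day 6 (log2 change 0.96).

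Secreted Wnt regulators changed in opposite directions. Of 18 tested genes of the Wnt list, 3 were higher and 4 lower, with a median change of -0.05. SFRP4, the most abundant, read 1794, 1718 and 1621 FPKM at day 6 and 3688, 3748 and 3878 at day 9, next to the rise of SFRP1. SFRP5, an antagonist of the same family made by adipocytes, fell from 4.99, 6.18 and 5.02 FPKM to 0.44, 0.62 and 0.34 (log2 fold change -3.30 ± 0.21, limma adjusted p = 5.1e-06). DKK1, which blocks the LRP co-receptors, fell from 1.53, 2.12 and 2.08 FPKM to 0.3, 0.17 and 0.19. The agonist RSPO2 and the Wnt-inactivating enzyme NOTUM fell at levels under 0.7 FPKM, and the ligand WNT2 rose to 0.56, 0.55 and 0.58. NOTUM was not called without replicate 2 of day 9 (log2 change -0.90). Antagonists of the same family therefore lay on both sides.

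TGF-beta and BMP genes were likewise split, with 3 of 28 higher and 3 lower. Besides GREM1, the co-receptor TGFBR3 (betaglycan) rose from 49, 33.9 and 32.2 FPKM to 173, 131 and 173, and LTBP3, which holds latent TGF-beta in the matrix, was 2.49-fold higher. The ligand TGFB2 fell from 10.2, 11.1 and 10.6 FPKM to 3.09, 3.14 and 3.77 (log2 fold change -1.65 ± 0.09, limma adjusted p = 1.5e-06). The other falls were BMP2, no longer called without replicate 2 of day 6 (log2 change -0.98), and SKIL. SKIL read 22.5, 27.4 and 22.6 FPKM against 16.1, 4.5 and 5.68, and it was called without replicate 1 of day 9 but in none of the other 5 such fits (limma adjusted p up to 0.10), on the 6 late libraries alone (0.067) or with the replicate block (0.061). CTGF, a known target of TGF-beta, read 1581, 1696 and 1769 FPKM against 1842, 2000 and 1880 and was not called. Its relative WISP2 read 40.4, 36.4 and 42.5 FPKM against 247, 262 and 254, without overlap. The spread that the fit gave WISP2 included day 3, where it was listed at 0.97, 0 and 0, and its call (limma adjusted p = 0.028) was lost whenever 1 library was left out (0.066 to 0.077) and at a pseudocount of 0.01 (0.23), and held on the 6 late libraries alone (0.00012).

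Most lists of matrix genes held rises and falls. Fibrillar collagens and their processing enzymes had 0 of 21 members higher and 1 lower, the prolyl hydroxylase P4HA3, which fell from 101, 117 and 106 FPKM to 39.7, 35.4 and 36.6. COL1A2 averaged 13776 FPKM at day 6 and 14315 at day 9. The small leucine-rich proteoglycan FMOD (fibromodulin), which binds collagen fibrils, rose from 439, 390 and 435 FPKM to 1333, 1298 and 1459 (log2 fold change 1.69 ± 0.07, limma adjusted p = 2.7e-07). FMOD is also one of the tendon markers. Among other collagens COL15A1 and COL8A1 rose 2.69-fold and 2.49-fold. POSTN (periostin) rose from 11.4, 10.5 and 12.7 FPKM to 30.7, 28.5 and 33.8. The elastic fibre protein FBN2 and the cartilage intermediate layer protein CILP fell 5.28-fold and 4.46-fold. Of 21 basement membrane genes 2 were higher and 3 lower: COL4A5 rose to about 1 FPKM, and NID2 and LAMC1 were among the falls. LAMA3 read 12, 12.2 and 10.9 FPKM against 21, 25.3 and 30.6, and its call was lost in each fit without 1 library (limma adjusted p up to 0.12), with the replicate block (0.059) and without the filter (0.056), but held on the 6 late libraries alone (0.0066). SPARC, their most abundant member, was level at 5571 ± 51.2 and 5602 ± 13.6 FPKM (mean ± SD, n = 3). Among integrins, ITGA8 fell from 26.1, 25.8 and 25.8 FPKM to 8.53, 7.91 and 8.26, opposite to ITGA4.

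Genes of the adipocyte itself moved in both directions. Of 15 tested adipocyte markers, 3 were higher and 2 lower, and the median change was -0.13. FABP4, the fatty acid carrier of fat cells, fell from 24.5, 26.4 and 28.4 FPKM to 7.59, 8.84 and 10.8 (log2 fold change -1.54 ± 0.12, limma adjusted p = 1.8e-05), after 91.1 FPKM on average at day 3. CD36, the fatty acid translocase, rose from 1.35, 2.02 and 1.94 FPKM to 7.7, 7.92 and 8.6 (2.15 ± 0.14, limma adjusted p = 5.4e-06). These 2 mRNAs of fatty acid uptake and binding thus went in opposite directions, each without overlap. LEP (leptin) read 9.97, 8.6 and 5.5 FPKM at day 6 and 25.3, 16.6 and 19.6 at day 9. The LEP call (limma adjusted p = 0.040) was lost in each fit without 1 library (0.052 to 0.13) and with the replicate block (0.055), without the filter (0.058) and at a pseudocount of 0.01 (0.39). It held on the 6 late libraries alone (limma adjusted p = 0.022). LPL, which frees fatty acids from lipoproteins, read 2.81, 3.09 and 3.19 FPKM against 5.96, 5.07 and 7.98, at the fold threshold, and was not called without replicate 1 of day 6 (log2 change 0.97) or replicate 3 of day 9 (0.84). PCK1, an enzyme of glyceroneogenesis, fell from 0.19, 0.16 and 0.18 FPKM to 0, 0.03 and 0. APLN (apelin), a peptide hormone listed among the secreted metabolic factors, rose from 43.9, 76.2 and 73.3 FPKM to 277, 337 and 442.

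Enzymes of lipid storage showed few calls, in lists too small to set apart from the 4.43% called of all tested mRNAs. Of 17 fatty acid synthesis genes 1 was lower, ACACB, the acetyl-CoA carboxylase that controls oxidation, which fell from 15.3, 13.6 and 12.5 FPKM to 2.91, 2.92 and 2.92. FASN (fatty acid synthase) read 1757, 1936 and 1794 FPKM against 1881, 1828 and 1588 and overlapped. Of 16 triglyceride synthesis genes and 10 lipid droplet proteins, 0 were called by limma, with 6 and 5 at an unadjusted p under 0.05, which 32.0% of all tested mRNAs reached. PLIN2, the most abundant droplet protein, read 230, 249 and 256 FPKM against 216, 206 and 232. Joint loci with genes of lipid droplets were outside these counts. HILPDA;FAM71F2 rose from 12.2 to 23.6 FPKM on average and LRRN4CL;BSCL2 from 27.4 to 49.3, each without overlap and under the fold threshold. AUP1;DQX1 fell from 49.4 to 38.9 FPKM, and PLIN1;PEX11A had mixed values. The insulin and IGF axis had 0 of 25 members higher and 3 lower: IGFBP3 fell from 290, 294 and 264 FPKM to 91.3, 90.9 and 98.2, and the adaptor IRS2 and the stress sensor SESN2 fell 2.33-fold and 2.57-fold. Adipogenic transcription factors were split, with KLF5 rising from 41.6, 44.3 and 41.9 FPKM to 114, 120 and 118, KLF2 rising as well, and KLF15 and ZBTB16 falling. CEBPD, their most abundant member, averaged 2181 FPKM at day 6 and 1616 at day 9 and stayed under the fold threshold.

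Of 48 cell cycle genes, 5 were higher and 1 lower, and the median change was -0.12. CCND1 (cyclin D1) read 47.8, 50.1 and 51.2 FPKM at day 6 and 197, 184 and 183 at day 9 (log2 fold change 1.92 ± 0.07, limma adjusted p = 2.5e-07). The inhibitor CDKN2B (p15) fell from 28.1, 32.1 and 28.1 FPKM to 7.01, 5.18 and 6.67. Both genes were apart between the days in every library. The licensing genes MCM3, MCM4, CDC6 and CDT1 rose 2.24-fold to 3.57-fold, CDC6 and CDT1 to no more than 2.13 FPKM.

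Cholesterol synthesis genes had 0 of 19 members higher and 3 lower, with a median change of -0.44, and 17 of the 19 changes were negative. FDFT1 (squalene synthase) fell from 9.72, 12.2 and 9.97 FPKM to 5.15, 5.02 and 4.59, a call that ended without replicate 2 of day 6 (log2 change -0.99). CYP51A1 and NSDHL each had a day 9 library apart from the others, at 5.68 against 1.77 and 1.76 FPKM and at 0.23 against 0.78 and 0.92, and their calls were lost in 5 and 3 of the 6 fits without 1 library (limma adjusted p up to 0.098 and 0.059) and on the 6 late libraries alone (0.066 and 0.086). The locus HMGCS1;TRH, which holds the first committed synthase, fell from 24.6, 29.4 and 28 FPKM to 10.5, 12 and 10.6. Targets of the amino acid response factor ATF4 had 2 of 29 lower (1 after rescaling), 0 higher and a median change of -0.63. PHGDH, the first enzyme of serine synthesis, read 235, 249 and 239 FPKM against 118, 107 and 130. Its log2 change of -1.03 lay at the threshold and was -0.96 without replicate 2 of day 9, and it was not called after rescaling. Glycolysis genes had 0 of 27 called by limma, with 18 at an unadjusted p under 0.05 (32.0% of all tested mRNAs) and a median of -0.25.

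The early and the late interval could be set side by side, since day 3 against day 0 shares no library with day 9 against day 6. Of the 392 mRNAs higher at day 9 than at day 6, 182 (46.4%) had been called lower at day 3 than at day 0, against 15.2% of all tested mRNAs, and 49 (12.5%) had been called higher, against 8.06%. Of the 291 mRNAs lower at day 9, 89 (30.6%) had been called higher at day 3, against 8.06% of all tested mRNAs. Another 78 (26.8%) had been called lower, against 15.2%. Many late rises were thus of genes that had dropped early. Late falls came from genes of both kinds, and the share with an early rise stood further above that of all tested mRNAs. GREM1 had dropped early, with means of 27.5, 0.26, 3.74 and 42.7 FPKM over days 0, 3, 6 and 9, and so had ITGA4 (15.9, 1.43, 3.00 and 23.9), CCND1 (84.1, 4.03, 49.7 and 188) and FMOD (1663, 250, 421 and 1363). PDGFRB, the receptor of PDGF on stromal cells, returned at day 9 to 636, 585 and 572 FPKM from 218, 206 and 211 at day 6, where day 0 averaged 586. Not all rises were returns. VCAM1;LOC534578 had averaged 0.45 FPKM at day 0 and PTGS2 1.55. Among the falls, PTX3 averaged 10.7, 1255, 1301 and 110 FPKM and CXCL12 10.1, 901, 86.8 and 34.3, so that day 9 was above day 0 in each. The day 9 mean was above the day 0 mean for 97 of the 291 falls and 268 of the 392 rises. It was so for 4935 of all 15402 tested mRNAs. Day 9 was within a log2 difference of 1 of day 0 for 207 of the 392 (52.8%) and for 150 of the 291 (51.5%), against 86.2% of all tested mRNAs.

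**Figure D5:**
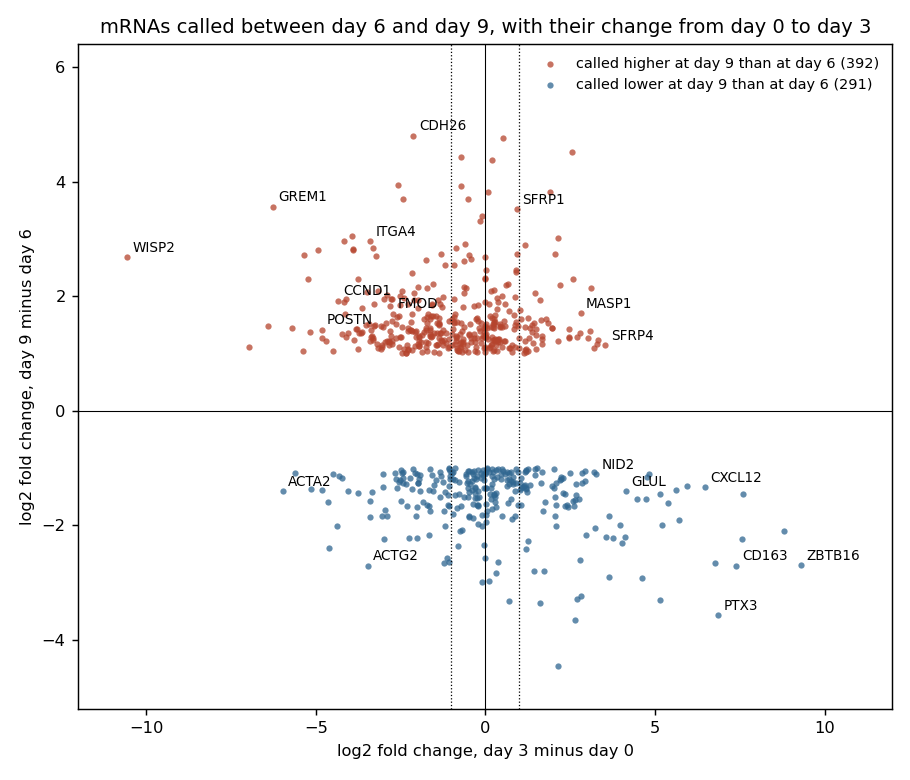
The 683 mRNAs called between day 6 and day 9, with their log2 fold change from day 0 to day 3 on the x axis (dotted lines at -1 and 1) and from day 6 to day 9 on the y axis. More of the 392 rises lie to the left (182 called lower at day 3) than to the right (49 called higher), and the 291 falls lie on both sides.

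Some markers of other cell types changed between the late days, and their part in the changes above was not tested. Of 33 sarcomere and myogenic genes, 2 were higher and 1 lower, with a median change of 0.03. MB (myoglobin) rose from 41.1, 42.1 and 49.8 FPKM to 111, 124 and 111, still under its 290 FPKM of day 0, and CASQ1 fell at about 1 FPKM. CKM read 19.2, 10.9 and 10.1 FPKM against 29.1, 23.2 and 27.7 and lost its call in 5 of the 6 fits without 1 library (limma adjusted p up to 0.12), with 0.047 on the 6 late libraries alone and 0.055 with the replicate block. Of 5 tested blood and immune markers, CD163 was called. This scavenger receptor, a glucocorticoid-induced gene of macrophages, fell from 28.3, 26.4 and 13 FPKM to 3.97, 2.72 and 2.98, while 5 of the 21 listed markers were at 0 in all late libraries and the list summed to 30.9, 30 and 18.7 FPKM against 8.64, 6.74 and 6.55. CD163 made up most of that sum in each day 6 library and had the largest part in its fall. Endothelial markers summed to no more than 6.12 FPKM in any late library, led by VWF, and ERG was called higher at 0.33, 0.3 and 0.39 FPKM. Of 7 pericyte and Schwann markers MCAM was lower, from 4.55, 6.54 and 5.27 FPKM to 2.12, 2.11 and 2.84, and CSPG4, the most abundant, read 44.2, 49.8 and 47.3 against 90.3, 78.3 and 79.1, under the fold threshold. Bone and cartilage markers had 3 of 11 higher and 1 lower. SOX9, the chondrocyte factor, rose from 0.4, 0.32 and 0.51 FPKM to 2.53, 2.7 and 3.41 whereas its target ACAN (aggrecan) fell from 10.8, 13.8 and 14.7 FPKM to 2.29, 2.83 and 2.09. ALPL and SPP1 were also called higher, but these calls were lost in 5 and 4 of the fits without 1 library (limma adjusted p up to 0.077 and 0.11). On the 6 late libraries alone limma called ALPL (adjusted p = 0.011) and not SPP1 (0.089).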

How the data were processed

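The submitters' processing notes name HISAT2 2.0, StringTie 1.3.0 and Bowtie 0.12.2. They also name a mouse genome build, while the paper names a cattle build and other versions of the aligners, so no coordinates are given. The labels describe poly(A) selection and the paper rRNA depletion, and which of these gave the table is not settled; it also lists non-coding RNAs such as RMRP, counted here as mRNAs. FPKM were deposited by the authors for each library; the lncRNA, circRNA and miRNA tables were not used here. Groups were the days of the labels, with 3 samples each. Genes with a mean of at least 0.1 FPKM over the 12 libraries were fitted on log2(FPKM + 0.1) with limma 3.58.1 (R 4.3.3, trended variance, a mean per day), with Benjamini-Hochberg adjusted p over all 15402. Tables and plots used Python 3.11.15, pandas 2.3.3 and Matplotlib 3.10.9. Fold changes on this scale understate low genes. Read depth per sample was not used here. Alternatives were pseudocounts of 1 and 0.01, no filter, a mean of at least 1 FPKM, rescaling by the median ratio, the 6 libraries alone, a replicate block, and leaving out each library. The fit was also run on simulated data, and the outcome of that run is not given here. The comparison and the gene lists were chosen with earlier results of these data known, so lists are given as counts and medians. Named genes were drawn from the 15 largest rises and falls without overlap at 1 FPKM or more and with a symbol, the 5 largest changes in FPKM, up to 4 called members and the most abundant one of each list, and the 10 most abundant mRNAs; others were named after their values were seen. The table joins some neighbouring genes into 1 locus (711 of those tested), which were left out of list counts.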

Additional observations from a re-analysis of the deposited data

How the results depend on the processing

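Little sign of pairing by replicate number was seen. The correlation of deviations from the day means was 0.05, 0.00 and 0.03 for the same numbers of day 6 and day 9. For different numbers of these days it was -0.04 to 0.01. With 3 libraries per day this check cannot exclude pairing. With a replicate block 657 mRNAs were called, 376 higher and 281 lower, and 645 of the 683 calls held.

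No called gene named here changed direction under any alternative. A pseudocount of 0.01 gave 780 calls, the 6 libraries alone 644, no filter 677 and a mean of at least 1 FPKM 475. With a pseudocount of 1 there were 368 calls (211 higher, 157 lower).

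The counts for lists under alternatives other than rescaling were chosen after seeing the data. With a pseudocount of 1, chemokines and cytokines had 3 members higher, cell cycle genes 2 higher, Wnt genes 2 lower, and steroid, retinoid and prostaglandin genes 0 lower. With a mean of at least 1 FPKM, chemokines and cytokines had 4 higher, Wnt genes 2 lower and the prostaglandin list 0 lower. The median change of all tested mRNAs was -8.9e-16 without the filter and -0.00091 after rescaling.

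Leaving out each library in turn gave 631 to 687 calls, 366 to 409 higher and 253 to 292 lower. Glucocorticoid response genes then had 0 to 1 higher, immediate-early genes 1 to 2 lower, and TGF-beta and BMP genes 1 to 3 lower.

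After rescaling, lysosome genes had 3 higher where 1 had been, interferon-stimulated genes 5 where 3 had been, and the insulin and IGF axis 1 where 0 had been; basement membrane and matricellular genes had 3 higher each. Of the genes named, CFI, PTGER2 and NOTUM were not called on the 6 libraries alone, IL33, ERG, WNT2 and ACAN not at a pseudocount of 0.01, and SPP1 not with the replicate block. A pseudocount of 1 ended the calls of LPL, PCK1, PDK4, KLF2, FDFT1, NSDHL, BMP2 and WNT2. Among others it also ended those of COL8A1, COL4A5, CDC6, CDT1, CASQ1, CKM, MCAM and ERG.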

Other observations

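Several lists held no call between the days. Of 67 cytosolic ribosomal protein genes, 0 were called by limma and 10 had an unadjusted p under 0.05 (32.0% of all tested mRNAs), with a median change of 0.06. Of 48 respiratory chain subunits 0 were called, with 14 under 0.05 and a median of -0.09, and of 16 HOX genes 0, with 3 under 0.05 and a median of 0.06. Of 20 chaperones of the endoplasmic reticulum 0 were called by limma, but 19 changes were negative, 14 of them at an unadjusted p under 0.05, with a median of -0.26.

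Of the 683 called mRNAs, 29 carried a joint name of several genes, for which the table does not say which gene was read, and 87 carried a LOC name.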
